A study of Mus musculus with 2 samples.

Results

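The cells described here are 461 cells of mouse lung organoid co-cultures. They scored higher for the smooth muscle genes Acta2, Tagln and Myl9 than for the matrix genes Dcn, Lum and Ogn. They were selected on their own counts among the 2101 cell barcodes of a control library. A first step kept 872 barcodes whose summed unique molecular identifiers (UMIs, each standing for 1 captured RNA molecule) of Col1a2, Col3a1, Sparc and Dcn exceeded 3 times those of Epcam, Cdh1, Cldn3, Cldn7 and Krt18. A further 20 with more than 2 UMIs of the division genes Mki67, Top2a, Cdk1, Birc5 and Ube2c were left out. The 852 cells that remained (40.6% of barcodes) are called stromal here by these counts alone, since some held alveolar type 1 genes, as given below. Over the 852, the mean of ln(1 + counts per 10000, CP10K) over each set of 3 genes was turned into a z-score. It is called m for the smooth muscle genes and f for the matrix genes. Cells with m above f are the members (54.1% of stromal cells, exact 95% Clopper-Pearson interval 50.7 to 57.5), and the 391 others are the comparison cells.

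Alveolar type 2 cells from C57BL/6 mice of the genotype Sftpc-CreERT2;R26R-Tomato, in which tamoxifen lets Cre of the Sftpc locus switch on a Tomato reporter, had been grown in Matrigel with lung stromal cells. The stromal cells came from lung suspensions depleted of CD31, EpCAM and CD45 positive cells and had been cultured before mixing, and the labels give the mice neither an age nor a number. Control organoids received PBS and the other organoids IL-1β, and the medium of both held a ROCK inhibitor for the first days. The labels give 2 weeks of culture for both libraries, whereas a figure legend of the study gives a longer time. Each condition is 1 droplet library (10x Genomics 3′ chemistry), so no difference here has a replicate check: intervals cover counting error only, no p-value is given, and treatment and library preparation cannot be told apart.

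Contractile stromal cells of the lung include airway and vascular smooth muscle, pericytes around capillaries, and myofibroblasts, which lay down matrix and pull on it. They share alpha smooth muscle actin (Acta2), the actin-binding proteins transgelin (Tagln) and calponin (Cnn1), and myosin light chains such as Myl9. Serum response factor with its cofactors of the myocardin family switches many of these genes on through a sequence called the CArG box, and transforming growth factor beta and mechanical tension are known to raise them in fibroblasts. Mature smooth muscle adds its own myosin heavy chain (Myh11) and desmin (Des), and pericytes are usually told by Rgs5, Kcnj8 and Cspg4.

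Because serum response factor is known for this gene class, the start regions of contractile apparatus genes were read first, from 250 bases before to 50 bases after each start in RefSeq (GRCm38.p6). A perfect CArG box was found on either strand in 9 of 54 windows of the list (16.7%), against 1.63% of 32851 windows of all genes, and the MCAT box (CATTCC, either strand) in 31.5% against 14.7%. The windows belonged to 41 of the 47 listed genes. Of the 9 stretches 6 are shown, from Myl9 of the selection and 5 genes that it did not use whose levels are given below. The others belong to Fhl2 and to Actc1, which had no UMI in the stromal cells. Each is read along the gene's own strand, and the capitals mark the CArG box.

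Myl9: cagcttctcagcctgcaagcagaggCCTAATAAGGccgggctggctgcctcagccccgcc
Acta1: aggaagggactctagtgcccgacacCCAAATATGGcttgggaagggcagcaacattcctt
Cnn2: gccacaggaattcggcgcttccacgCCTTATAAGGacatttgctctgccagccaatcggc
Fhl1: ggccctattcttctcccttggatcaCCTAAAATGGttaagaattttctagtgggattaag
Myl6: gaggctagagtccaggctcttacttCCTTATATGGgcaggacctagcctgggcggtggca
Vcl: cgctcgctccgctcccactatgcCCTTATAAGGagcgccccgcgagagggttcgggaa

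They lie at chr2:156775278-156775337 (plus strand, Myl9), chr8:123894814-123894873 (minus, Acta1), chr10:79988519-79988578 (plus, Cnn2), chrX:56779556-56779615 (plus, Fhl1), chr10:128493025-128493084 (minus, Myl6) and chr14:20929148-20929205 (plus, Vcl). The box begins 161 bases before the RefSeq start in Myl9, 73 in Acta1, 56 in Cnn2, 102 in Fhl1, 50 in Myl6 and 227 in Vcl. A match describes the letters of a window, and no binding was measured. Acta2 had no perfect match in its window, which says nothing of boxes elsewhere.

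The label of contractile cells held for a minority of the members. Of the 461, 145 had no UMI of Acta2, Tagln or Myl9, 170 had 1 or 2, 67 had 3 to 9 and 79 had 10 or more. A cell without any such UMI had m of -0.52, and one without any UMI of Dcn, Lum or Ogn had f of -0.85, so the 112 cells with neither fell on the member side. The difference m minus f was 0.000961 in the member nearest the boundary and -0.000384 in the nearest comparison cell. Within 0.5 SD units of the boundary on either side there were 378 of the 852 cells, 247 of them members. The members are therefore called here by their scores, and the name contractile is kept for the subset with clear counts.

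That subset, called contractile-high here, holds the 87 members with a summed Acta2, Tagln and Myl9 level of at least 5 CP10K (18.9% of members). This boundary was set after the values were seen, and 29 stromal cells lay between 4 and 6 CP10K. The 87 cells held 94.6% of the 10052 UMIs of these genes in the members. A second subset of 62 members (13.4%), also set after the values were seen, had more than 10 CP10K of Ager, the receptor RAGE that marks alveolar type 1 cells, against 26 of the 391 comparison cells (6.65%). The other 312 members had neither and are called contractile-low.

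**Figure D1:**
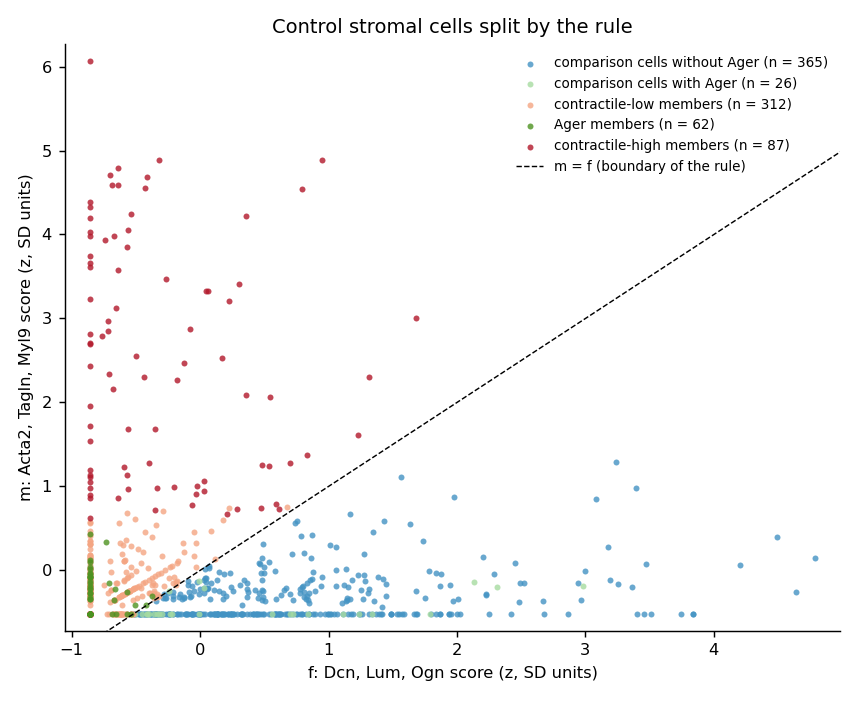
Each point is 1 of the 852 control stromal cells, with the matrix score f on the horizontal axis and the smooth muscle score m on the vertical axis, both in SD units, and the dashed line is the boundary of the rule. The 87 contractile-high members spread upwards to an m of about 6 while the 312 contractile-low and 62 Ager members crowd at the lower left corner, where both scores are at or near their floor.

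In the 87 contractile-high cells, Acta2 (chr19:34241090-34255590 in GRCm38, minus strand) ranged from 0 to 252 CP10K with a median of 11.98, and 81 of the cells had a UMI. Tagln (chr9:45929619-45936058, minus strand) had a median of 5.44 and a highest value of 84.8 CP10K, with a UMI in 78 cells. Myl9 (chr2:156775420-156781658, plus strand) had a median of 4.18 and a highest value of 30.7 CP10K, with a UMI in 83 cells. In the 365 comparison cells without Ager the medians of all 3 genes were 0 and the highest values 7.97, 3.16 and 5.27 CP10K. The subset was graded, from cells just over the boundary to a few far above it, and 6 cells held 28.8% of all Acta2, Tagln and Myl9 UMIs in the stromal cells. These 3 genes chose the cells, so their levels are a description of the choice.

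Epithelial cells, which should lack these genes, gave a background for such UMIs. With every cell thinned to 4000 UMIs, Acta2 was seen in 86.2% of contractile-high cells (77.1 to 92.7), 16.7% of contractile-low members (12.7 to 21.3), 19.4% of Ager members (10.4 to 31.4), 11.5% of comparison cells without Ager (8.42 to 15.2) and 7.201% of 611 epithelial cells (5.28 to 9.55). Without thinning the shares were 93.1%, 37.5%, 35.5%, 28.8% and 20.1%. Median depths before thinning were 18687, 15244, 11098, 15199 and 14677 UMIs. The smooth muscle protein transgelin behaved alike, with Tagln in 74.7%, 5.45%, 3.23%, 2.19% and 1.47% of thinned cells. Calponin, which the rule did not use, was seen in 21.8% of contractile-high cells (13.7 to 32.0) and in 0.962% of contractile-low, 0.274% of comparison and 0.164% of epithelial cells. The interval of the contractile-low members overlapped that of the epithelial cells for Cnn1 (0.199 to 2.78 against 0.0041 to 0.908). No such comparison is read from Acta2 and Tagln, whose counts chose the members.

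Over all 461 members, summed UMIs scaled to counts per 1000000 (CPM) gave Acta2 at 741 against 29.4 in the comparison cells, Tagln at 304 against 10.1 and Myl9 at 194 against 24.9, while Lum stood at 53.7 against 1084, Dcn at 30.1 against 548 and Ogn at 23.8 against 60.9. Of 9225 genes with at least 100 UMIs over both sets, 152 were at least 2-fold higher in members (1.65%) and 73 at least 2-fold lower (0.791%), and nothing is read from these shares since the rule used the same contrast. Outside the rule genes, the highest were Cnn1 at 36.2 against 1.24 CPM (ratio 29.1, exact interval 14.6 to 68.1), the adipsin gene Cfd at 29.6 against 3.11 and the growth factor binding protein Igfbp2 at 465 against 104. Other genes that the naming rule gave were Cthrc1, Fhl1, Thbs1, Ddah1, Ctgf, Cxcl10, Tpm2, Fam150a, Nexn, Pdlim1, Cck, Krt7, Wisp2, Ccl5 and Hspb1, at ratios of 3.12 to 4.98. The lowest were the lipid carrier Apod at 33.3 against 200 CPM, the phospholipase Pla2g7 at 5.67 against 38.4, the cytokine Tnfsf9 at 6.90 against 44.1 and the resistin-like gene Retnla at 26.2 against 139. Cadps, Srpx2, Pltp, Sncg, Igfbp6, Bmp2, Inhbb, Fbln1, Srgn, C1qtnf2 and Myoc followed at ratios of 0.183 to 0.327.

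Several of these genes stood highest in members other than the contractile-high ones. Krt7, a keratin of simple epithelium, stood at 1131 CPM in the Ager members and 10.2 in the contractile-high ones. Igfbp2 stood at 2069 CPM in the Ager members, 767 in the contractile-high and 56.1 in the contractile-low. Cfd was at 43.7 CPM in the contractile-low members and 7.91 in the contractile-high, and it was among the leading genes of a cluster described below. Wisp2 went the other way, at 514 CPM in the contractile-high, 29.5 in the contractile-low, 2.25 in the Ager members and 47.8 in the comparison cells.

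Other type 1 genes were high in the Ager members. Of 14 type 1 genes, a list added after the values were seen, 12 were at least 2-fold higher in all members than in comparison cells, with a median log2 ratio of 1.32, against 1.65% higher and a median of -0.02 over all measured genes. Ager stood at 13596 CPM in the Ager members and 206 in the contractile-low, the water channel Aqp5 at 1946 against 38.2, Rtkn2 at 462 against 2.36 and Hopx at 390 against 2.36. Matrix collagen was low in these cells, with Col3a1 at 165 CPM against 1509 in the contractile-low members, and their ribosomal protein genes made up a median of 9.98% of UMIs against 18.9%. Epcam, a gene of the epithelial sum, stood at 157 CPM in them and 5.51 in the contractile-low. They had a median of 64.5 stromal UMIs of the first step and 10.5 epithelial ones, and the part of free RNA or of droplets with more than 1 cell in this subset was not tested. With all Ager cells left out of the stromal cells, 69 genes rather than 152 were at least 2-fold higher in members.

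The comparison of the 87 contractile-high members with the 365 comparison cells without Ager shows the contractile cells more directly. Of 7484 genes with at least 100 UMIs, 260 were at least 2-fold higher (3.47%) and 689 at least 2-fold lower (9.21%), with a median log2 ratio of -0.16 over all of them. The rule chose the cells on this contrast too, so what follows describes them. Summed levels were carried by part of the 87 cells: the per-cell median of Thbs1 was 14.3 CP10K with a UMI in 73 cells and that of Ctgf 1.15 with a UMI in 53, while Wisp2 had a UMI in 49, and Cthrc1 and Igfbp2 had medians of 0 with a UMI in 43 and 42. The counts of genes depended on the deepest cells: without the tenth of stromal cells with the most UMIs 164 genes were higher, and with every cell thinned to 4000 UMIs 80 were higher and 180 lower.

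The contractile apparatus list holds 44 genes of actin and myosin filaments and their partners beside the 3 of the rule, and 36 were measured. In contractile-high cells 24 of the 36 were at least 2-fold higher and none lower, with a median log2 ratio of 1.40, against 3.47% higher and a median of -0.16 over all measured genes. In all members the count was 9 of 36 with a median of 0.50, against 1.65% higher and a median of -0.02 over all genes measured in that contrast. Calponin (Cnn1, chr9:22099216-22109630, plus strand) stood at 133 CPM (118 to 149) against 1.31, a ratio of 101 (50.7 to 237) on 8 UMIs in the comparison cells. It was seen in 36 of the 87 cells without thinning. The skeletal muscle actin Acta1 stood at 87.0 CPM against 0.657 on 4 comparison UMIs, a ratio of 132 (50.9 to 491). Actins are near-identical over much of their length, and whether reads were split between Acta1, Acta2 and Actg2 was not tested. The gut isoform Actg2 had 87 UMIs in the contractile-high and 1 in the comparison cells, under the minimum for a ratio.

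Ratios of the other filament genes were smaller. Beta-tropomyosin (Tpm2), which lines the actin filament, stood at 647 CPM against 55.9, a ratio of 11.6 (10.3 to 13.1), Tpm1 at 1032 against 455 and Tpm4 at 726 against 251. The light chain Myl6 stood at 2176 against 793 CPM, caldesmon (Cald1) at 1334 against 341, and the non-muscle myosin heavy chains Myh9 and Myh10 both at 216 against 102 and 73.0. Of the proteins that bind filaments or anchor them at adhesions, Fhl1 stood at 172 against 11.2 CPM (ratio 15.4), Pdlim5 at 240 against 42.4, the calponin Cnn2 at 653 against 144, Actn1 at 466 against 177, Vcl at 241 against 83.5 and Zyx at 162 against 74.3. The small chaperones Hspb1 and Cryab stood at 285 against 37.5 and 362 against 77.9. The myosin light chain kinase Mylk was the only measured one with a ratio below 1, at 147 against 249 CPM (ratio 0.588, interval 0.519 to 0.664), and Cnn3 at 216 against 167 CPM (ratio 1.29) and Csrp1 at 240 against 131 (1.83) stayed under 2-fold.

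**Figure D2:**
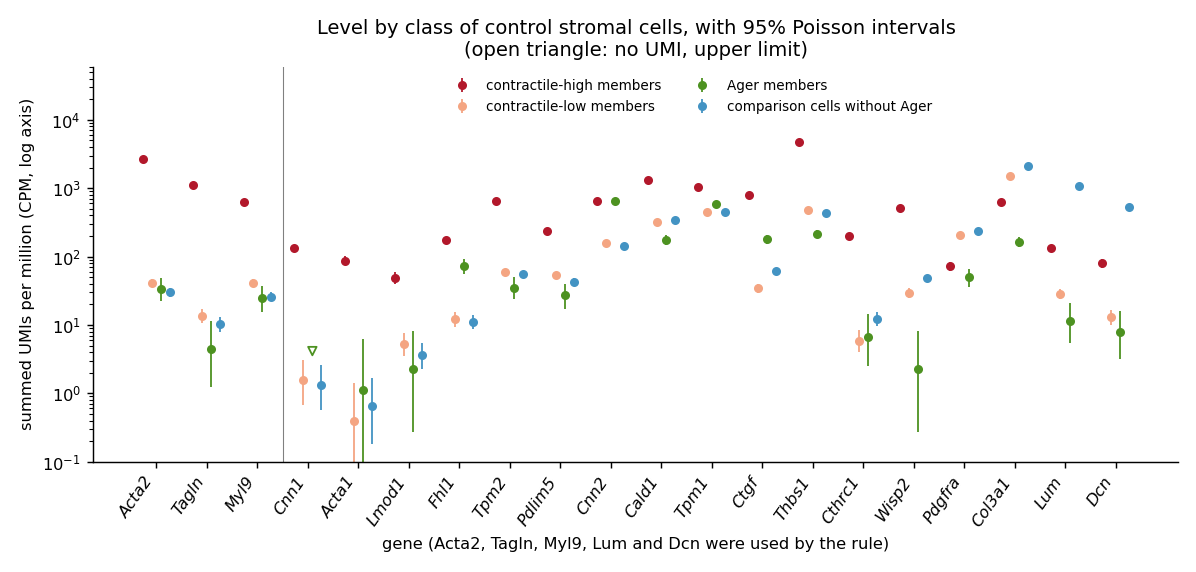
Summed UMIs in CPM on a log axis for 20 genes in 4 classes of control stromal cells, with exact 95% Poisson intervals as bars and an open triangle at the upper limit where no UMI was seen. From Acta2 to Wisp2 the 87 contractile-high cells stand highest for almost every gene, Cnn2 being level with the Ager members, and they stand below the comparison cells for Pdgfra, Col3a1, Lum and Dcn.

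Few markers of mature smooth muscle reached the minimum for a ratio. Of 8 smooth muscle markers 3 were measured, and Cnn1 and Lmod1 (48.9 against 3.61 CPM), a leiomodin of actin filaments, were at least 2-fold higher. Over all measured genes 3.47% were higher and 9.21% lower. Under that minimum, the gut actin Actg2 had 87 UMIs in the 87 cells and 1 in the comparison cells. Myh11, the smooth muscle myosin, had 27 UMIs in the 87 cells (12.6 CPM) and 1 in the comparison cells. Des had 4 UMIs and 0, and Myocd, the cofactor myocardin, had none in either. Smtn (smoothelin) stood at 20.01 against 16.8 CPM. Of the pericyte markers, Rgs5 and Higd1b had no UMI in the contractile-high cells, Kcnj8 stood at 9.77 against 52.2 CPM, Notch3 at 8.38 against 10.4, and Cspg4 was over 2-fold higher at 49.3 against 6.90. Cox4i2, a subunit of cytochrome oxidase, had 65 UMIs (30.3 CPM) against 31 (5.09 CPM), under the minimum for a ratio.

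Among markers often given for lung myofibroblasts, 1 of 7 measured was at least 2-fold higher and 5 were lower. The counts of this paragraph stand beside 3.47% higher and 9.21% lower over all measured genes. Mustn1 stood at 94.5 against 45.3 CPM. The receptor Pdgfra stood at 72.1 against 235, Aspn at 24.2 against 75.1 and the hedgehog-binding Hhip at 1.40 against 19.6 (3 UMIs, ratio 0.0714, interval 0.0145 to 0.214). Tgfbi, a matrix protein, stood at 0.931 against 22.02 (2 UMIs, ratio 0.0423, interval 0.0051 to 0.156), and Enpp2 was lower as well. Of 8 alveolar fibroblast markers measured, Itga8, Gyg and Npnt were higher and Limch1, Inmt and Ces1d lower. Itga8 stood at 74.0 against 27.9 CPM and Inmt at 7.45 against 71.3. Of 6 adventitial markers measured, Mfap5 was higher, at 530 against 108 CPM, and Dpt, Igfbp4 and Ly6a were lower. The contractile-high cells thus carried filament genes without the full marker set of any of these cell types, and no cell type name is given to them here.

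Markers of other cell types were at or near 0, or under 2-fold. No mesothelial, endothelial or glial marker was measured at 100 UMIs, and Msln and Wt1 of mesothelium, Cdh5 and Kdr of endothelium, Sox10 of glia and Ptprc of immune cells had no UMI in the contractile-high cells. Of 4 epithelial genes measured none passed 2-fold, against 3.47% higher and 9.21% lower over all measured genes. Their summed levels were 3262 and 3892 CPM, with Sftpc as the most abundant, at 2742 against 3212 CPM.

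**Figure D3:**
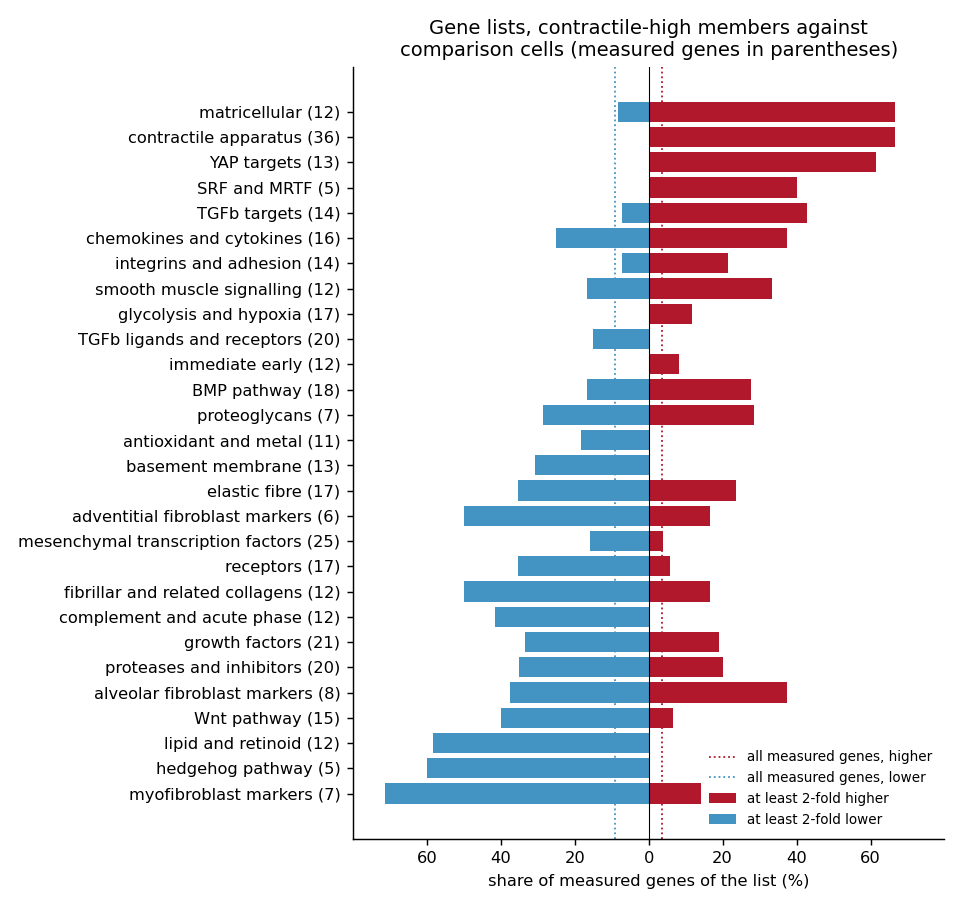
Bars give the percent of measured genes of each list that were at least 2-fold higher (right) or lower (left) in the 87 contractile-high members than in 365 comparison cells, for lists with at least 5 measured genes other than the type 1 list, ordered by median log2 ratio. Dotted lines mark all measured genes at 3.47% higher and 9.21% lower, and the matricellular, contractile apparatus and YAP target lists reach furthest to the right of those drawn. Lists overlap: Ctgf counts in the matricellular, YAP target and transforming growth factor beta target lists.

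Targets of YAP and of transforming growth factor beta were higher in part. Ctgf was not higher in every group of contractile-high cells, as given below by cluster. Of 13 targets of YAP, the transcription cofactor that responds to stretch, 8 were at least 2-fold higher and none lower, with a median log2 ratio of 1.28. All counts of this paragraph stand beside 3.47% higher, 9.21% lower and a median of -0.16 over all measured genes. Ctgf, a secreted matrix protein, stood at 798 against 61.9 CPM (ratio 12.9, interval 11.5 to 14.4), its relative Cyr61 at 941 against 238, Amotl2 at 156 against 32.9 and the clotting trigger F3 at 255 against 34.5. Of 14 targets of transforming growth factor beta measured, 6 were higher and 1 lower. Fibronectin (Fn1) stood at 490 against 216 CPM and the integrin Itga11 at 43.8 against 9.37, whereas Tgfbi was the lower one. None of 20 measured ligands, receptors and carriers of the pathway was 2-fold higher and 3 were lower, Tgfb2 at 42.8 against 136 CPM, Tgfbr1 at 22.3 against 56.0, and Tgfbr3. Tgfb1 itself stood at 60.5 against 48.0 CPM (ratio 1.26, interval 1.018 to 1.56). Of the serum response factor group, 2 of 5 were higher: Mkl1, a cofactor of the myocardin family, stood at 42.4 against 14.8 CPM, Fhl2 at 95.9 against 36.1, and Srf itself at 28.4 against 19.1.

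The extracellular matrix was divided. Of 12 matricellular genes 8 were higher and 1 lower, with a median log2 ratio of 1.49. Over all measured genes, beside which the matrix counts stand, 3.47% were higher and 9.21% lower, with a median of -0.16. Thbs1 (thrombospondin, which frees latent transforming growth factor beta) stood at 4730 against 428 CPM, Wisp2 at 514 against 47.8, Wisp1 at 217 against 81.2, Cthrc1 at 202 against 12.2 and the inhibitor Timp3 at 1543 against 522, while osteopontin (Spp1) stood at 232 against 1457. Of 12 fibrillar and related collagens 2 were higher, Col12a1 at 424 against 151 CPM and Col8a1 at 616 against 267, and 6 were lower, among them Col6a1 at 143 against 402 and Col15a1 at 7.45 against 66.7. Col1a1 hardly moved, at 1614 against 1661 CPM (ratio 0.971, interval 0.934 to 1.01), and Col3a1, which the first step used, stood at 620 against 2143. Among small proteoglycans Fmod (fibromodulin) stood at 137 against 26.0 and Prelp at 390 against 97.1 CPM. In the elastic fibre list 4 of 17 were higher, including Fbln2 at 338 against 76.6, Fbln5 at 488 against 136 and the crosslinker Lox at 957 against 474, and 6 were lower, including Fbln1 at 5.59 against 38.6. Of 13 basement membrane genes none was higher and 4 were lower.

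The counts of signalling genes stand beside 3.47% higher and 9.21% lower over all measured genes, where lower genes were the more frequent. Of 21 growth factors and their binding proteins 4 were higher and 7 lower, with Igfbp2 at 767 against 58.3 CPM and Hbegf at 87.0 against 10.2 on the high side, and Igfbp5 at 3.72 against 157 and Hgf at 3.72 against 18.1 on the low side. Of 17 receptors 1 was higher, the thrombin receptor F2r, and 6 were lower. Of 15 Wnt pathway genes 1 was higher, the agonist Rspo3 at 572 against 238 CPM, and 6 were lower. The hedgehog list had 3 of 5 lower, and the lipid and retinoid list 7 of 12 lower, including Lpl at 186 against 451 CPM and Pparg at 5.12 against 18.6. Of 18 genes of the bone morphogenetic protein pathway 5 were higher and 3 lower. Grem1, an antagonist of these proteins, stood at 1368 against 627 CPM, while Bmp2 stood at 10.7 against 43.9. Of 16 chemokines and cytokines 6 were higher and 4 lower. Cxcl10, an interferon-induced chemokine, stood at 190 against 14.8 CPM and Ccl2 at 1942 against 753, and Ccl11 stood at 27.5 against 295. Of 12 complement and acute-phase genes none was higher and 5, all of complement, were lower, including C3 at 146 against 673 CPM. The summed level of the 12 was 18094 against 14302 CPM, with the acute-phase gene Saa3 as the most abundant.

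Over the 852 stromal cells, genes outside the rule whose ln(1 + CP10K) ran most like m were Tpm2 (Pearson r 0.72), Cnn1 (0.71), Pdlim1 (0.62), Ddah1 (0.58), Nexn (0.53), Fam150a (0.52), Mfap5 (0.51), Cald1 (0.51) and Thbs1 (0.49). The cells share 1 library and differ in depth, so these values are a description. Tpm2 and Cald1 belong to the actin filament, Pdlim1 and Nexn bind it or its crosslinks, and Ddah1 is an enzyme that breaks down methylated arginine.

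Clustering of the 852 cells without the rule genes gave 7 clusters, and 67 of the 87 contractile-high cells fell in 2 of them. Cluster 3 (76 cells, 62 of them members and 48 contractile-high) held 74.3% of all Acta2, Tagln and Myl9 UMIs of the stromal cells and had Wisp2, Thbs1, Fam150a, Fmod and Prss23 among its leading genes. Cluster 5 (27 cells, 24 members, 19 contractile-high) held 15.1% and was led by Wfdc17, Cthrc1, S100a6, Tpm2 and Hspb1. Cluster 0, the main one with 476 cells, held 250 members of which 15 were contractile-high. Cluster 1 (102 cells, 48 members), led by Wfdc21, Myoc and Cfd, had 1 contractile-high cell. Cluster 2 (86 cells, 60 members) held 60 of the 62 Ager members and no contractile-high cell. Cluster 4 (71 cells), led by Pla2g7 and Tnfsf9, had 10 members, and cluster 6 (14 cells), led by Igfbp5 and Stc1, had 7.

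**Figure D4:**
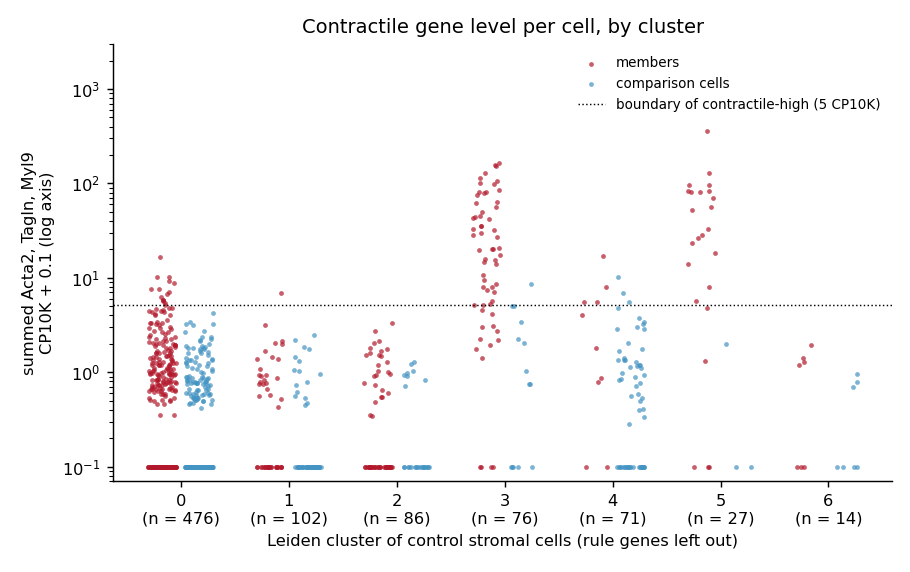
Each point is 1 control stromal cell, placed by cluster, with its summed Acta2, Tagln and Myl9 level in CP10K plus 0.1 on a log axis. Of the members, 48 of 62 in cluster 3 and 19 of 24 in cluster 5 reach the dotted boundary at 5 CP10K. Cluster 0 holds many members at or near the floor, level with the comparison cells beside them.

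The contractile-high cells of clusters 3 and 5 both held UMIs of the filament genes. Acta2 stood at 2964 CPM in the 48 cells of cluster 3 and 4112 in the 19 of cluster 5, Tagln at 1172 and 2112, Tpm2 at 679 and 1137, and Cnn1 at 152 and 199 with a ratio of 0.763 whose interval held 1 (0.552 to 1.08). Thbs1, Wisp2 and Ctgf were higher in cluster 3: Thbs1 stood at 6237 against 560 CPM, Wisp2 at 680 against 63.2, and Ctgf at 1056 CPM against 9.03 on 2 UMIs (ratio 117, interval 32.3 to 967). In the comparison cells without Ager, Thbs1 stood at 428 CPM, Wisp2 at 47.8 and Ctgf at 61.9. Thbs1 and Wisp2 in cluster 5 thus lay near that level and Ctgf below it. Cthrc1 was higher in cluster 5, at 361 against 221 CPM, as were the calcium-binding S100a6 (17191 against 4061) and S100a4 (2730 against 812). The nuclear long RNAs Malat1 and Meg3, chosen after the values were seen, were lower in cluster 5. Malat1 stood at 627 CPM there against 27490 in cluster 3, and Meg3 at 13.5 against 1751. Cells of cluster 5 were shallow, with a median of 7455 UMIs in its contractile-high cells against 27719.5 in cluster 3 and a median mitochondrial share of 1.35% against 3.87%. The part of depth and of nuclear RNA in the difference was not tested.

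In the IL-1β library the same rule kept 480 stromal cells of 3066 barcodes and gave 210 members (43.8%, interval 39.3 to 48.3) and 270 comparison cells. The share is not comparable in content, since each library was scaled on itself: 169 of the 210 members had no UMI of Acta2, Tagln or Myl9, Ogn had no UMI in any of the 480 cells, and with the control means and SDs only 3.33% of cells were members. A level in CP10K avoids that scaling. At least 5 CP10K of the smooth muscle genes was reached by 91 of 852 control cells (10.7%, interval 8.69 to 12.95) and by 4 of 480 IL-1β cells (0.833%, interval 0.228 to 2.12). These 4 cells were members with a median of 41578.5 UMIs and held 94.3% of the members' Acta2, Tagln and Myl9 UMIs.

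**Figure D5:**
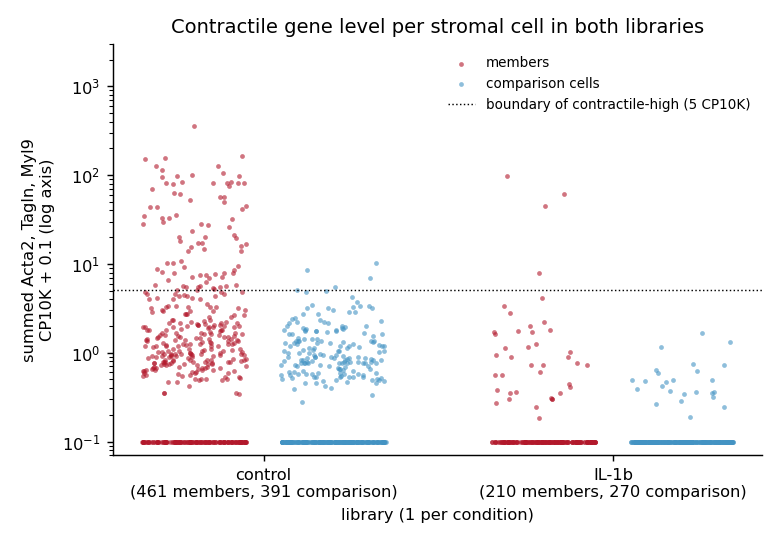
Points are stromal cells of the control and IL-1β libraries (1 library per condition), with the summed Acta2, Tagln and Myl9 level in CP10K plus 0.1 on a log axis. Above the dotted line at 5 CP10K the control library has 91 of 852 cells and the IL-1β library 4 of 480, and most IL-1β cells sit on the floor of no UMI.

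Over all stromal cells, whatever their scores, Acta2 was at 426 CPM in control cells against 74.3 with IL-1β (ratio 0.174, interval 0.161 to 0.188), Tagln at 174 and 33.6, and Myl9 at 119 and 17.4. Genes that the rule did not use were lower too, Cnn1 at 20.8 and 7.31 CPM, Tpm2 at 142 and 47.4, Ctgf at 169 and 18.4, and Wisp2 at 107 and 19.4. Thbs1 stood at 1059 and 630 CPM. In epithelial cells, which should lack it, Acta2 was at 14.3 CPM in control cells against 1.71 with IL-1β.

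Split by score within the IL-1β library, 100 of 7377 genes were at least 2-fold higher in members (1.36%) and 35 lower (0.474%), and 3 of 31 measured contractile apparatus genes outside the rule were higher (Tes, Cnn2 and Cryab), with a median log2 ratio of 0.33 against 0.10 over all genes. Cnn1 had 71 UMIs in members and 1 in comparison cells, with UMIs in 3 of the 4 contractile-high cells. Ctgf stood at 35.03 against 6.44 CPM and Thbs1 at 892 against 444, the same order as in the control library.

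Between the member sets of the 2 libraries, 295 of 8662 genes were at least 2-fold higher with IL-1β (3.41%) and 870 lower (10.0%), in cells whose makeup differed as given above. Of the 12 highest by the naming rule 5 were matrix metalloproteinases. Mmp12 stood at 1155 CPM against 0.123 on 1 control UMI (the ratio's interval began at 1682), Mmp3 at 9027 against 285, and the growth factor Areg at 183 against 2.22, with Mmp10, Mmp13, Mmp9, Il11, Crabp1, Snap25, Ly6i, Ctla2a and Ndufa4l2 beside them. The lowest were Igfbp2 at 0.730 against 465 CPM on 3 UMIs (ratio 0.00157, interval 0.00032 to 0.00459), Ptn at 8.27 against 215 and Wfdc21 at 1.22 against 78.0, with Abi3bp, Sdpr, Frmd5, Kctd12 and Scnn1g. Tmem178, Cxcl14 and Cfd had no UMI in the IL-1β members, against 56.3, 29.6 and 29.6 CPM in the control members. A level of 3 UMIs in the IL-1β members would be 0.730 CPM. That floor lies 77.1-, 40.5- and 40.5-fold below the control levels and is a reference level, not a bound. The exact intervals of the 3 ratios reached up to 0.0160, 0.0306 and 0.0306. Of the 14 type 1 genes 13 were lower with IL-1β, where 6 members rather than 62 passed 10 CP10K of Ager.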

How the data were processed

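Droplet counts of 2 organoid libraries were used, each a matrix of UMI counts per gene and cell barcode (27998 genes) as the authors deposited it. Per the study's methods, reads were aligned and counted with Cell Ranger against GRCm38, and Scanpy 1.3.6 is named for the authors' later steps. The files hold all 2101 and 3066 barcodes, no cell annotation and no scaled values, and 454 of the 461 members passed the authors' stated limits (genes above 500 and below 7000, UMIs above 2000). Totals were 33965848 UMIs in the control library (median 14613 per barcode) and 41220175 in the IL-1β library (median 11496.5). The libraries shared 11 barcode sequences, none of them among the stromal cells. No doublet caller was run, and the cells with the most UMIs were left out as an alternative.

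Members were selected by the scores given above. UMIs were summed over cells, scaled to CPM and compared as ratios for genes with at least 100 UMIs, with exact Poisson and conditional binomial 95% intervals (scipy 1.17.1). The members and all gene lists were chosen with earlier results of these data known, and the contractile-high and Ager subsets and the type 1 list after their values were seen. Named genes are those of the 37 lists, the 20 highest and 15 lowest between members and comparison cells, the 12 highest and 12 lowest between libraries (at least 200 UMIs, ranked by the interval limit nearest 1, without the rule, mitochondrial, ribosomal and predicted genes) and the 10 most like m. Leading genes of clusters, and Malat1 and Meg3, were named after their values were seen. Some genes that this rule gives are not reported here. Clusters are from Leiden clustering (scanpy 1.11.5, resolution 0.5, 30 components, 15 neighbours, 2024 variable genes, rule genes left out). Gene positions were matched by gene ID to the GENCODE annotation of GRCm38 for 584 of 586 IDs. The ratio step was tested on simulated counts. Alternatives changed the boundary, the stromal limit, depth, scaling, deep cells and the UMI minimum.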

Additional observations from a re-analysis of the deposited data

Results flagged for a closer look

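Only 4 of 313 genes compared went at least 2-fold one way between members and comparison cells in the control library and at least 2-fold the other way in the IL-1β library, and the difference was not tested, since each condition is 1 library. Bmp2, a bone morphogenetic protein, stood at 13.8 CPM in members against 49.1 in comparison cells of the control library (ratio 0.281) and at 144 against 41.6 with IL-1β (ratio 3.45). Igfbp3, an insulin-like growth factor binding protein, stood at 88.2 against 212 CPM (ratio 0.416) and at 375 against 165 (ratio 2.28). Inhbb, a subunit of activin, stood at 7.15 against 26.9 CPM (ratio 0.266) and at 37.2 against 17.6 (ratio 2.12). Pla2g7, a phospholipase that breaks down platelet-activating factor, stood at 5.67 against 38.4 CPM (ratio 0.148) and at 122 against 22.3 (ratio 5.46). All of them were leading genes of cluster 4 of the control cells, where 10 of 71 cells were members. The scores were scaled within each library, so member sets of both libraries hold different cells.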

How the results depend on the processing

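No paired analysis was possible because each condition has 1 library. Of 118 alternative values, 82 were classed as close to those reported, 36 as moved and none as reversed. Values classed as close could still shift. The contractile apparatus median with IL-1β, 0.33 as reported, was 0.18 after thinning to 4000 UMIs. It was 0.20 under the authors' cell limits and 0.20 without the tenth of cells with the most UMIs. Without cells near the boundary, members were 45.1% of control stromal cells, 150 genes were lower in them, the contractile apparatus median was 0.85 (0.62 with IL-1β), and 509 genes were lower between libraries. With m above 0 alone as the rule, members were 22.9% of control and 13.3% of IL-1β stromal cells, 466 genes were lower, the median was 1.07 and 496 genes were lower between libraries. A stromal sum over 10 times the epithelial one left 62 genes higher in members, and leaving out Ager cells 69. After thinning to 4000 UMIs members were 58.6%, 19 genes were lower, the median was 0.32, 158 genes were higher and 479 lower between libraries, and in contractile-high cells 80 were higher and 180 lower with a median of 0.96. Without the tenth of cells with the most UMIs, 47 genes were lower, the median was 0.34, contractile-high cells were 7.96% and 164 genes were higher in them. With at least 300 UMIs a gene, 80 genes were higher and 36 lower in members, and 167 higher and 454 lower between libraries. With at least 30 UMIs the counts were 301, 176, 507 and 1391. Control means and SDs gave 3.33% members with IL-1β and a median of 1.26. Contractile-high cells were 6.92% at 10 CP10K and 12.9% at 3 CP10K. The shares and counts thus depended on where the boundary lay. The contractile apparatus median stayed above 0 in each alternative run for it, which leaves out the UMI minimums of 30 and 300. The median over all genes, 0.10 with IL-1β as reported, was not computed in these alternatives. The cells were chosen on related genes, so the sign of the list median is a description. Depth limits genes under 100 UMIs, such as Myh11 and Des, which were not compared as ratios. Alternatives on Ager cells and on the contractile-high subset were chosen after seeing the data.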

Other observations

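In the contractile-high members, genes of smooth muscle signalling, adhesion and metabolism not described above were uneven. Of 12 smooth muscle signalling genes measured 4 were at least 2-fold higher than in comparison cells and 2 lower. Counts here stand beside 3.47% higher and 9.21% lower over all measured genes. The prostacyclin synthase Ptgis stood at 118 against 28.6 CPM, with Ptgs2, Pde3a and Rock2 beside it, and Kcnmb1 and Pln, genes of differentiated smooth muscle, had no UMI. Of 14 integrins and adhesion genes 3 were higher and 1 lower, with the fibronectin receptor subunit Itga5 at 131 against 41.9 CPM and the surface protein Thy1 at 77.3 against 220. Of 20 proteases and inhibitors 4 were higher and 7 lower, with the inhibitor Timp1 at 2318 against 709 CPM and the proteases Mmp2 and Mmp3 at 231 against 895 and 97.3 against 368.

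Of 25 mesenchymal transcription factors measured 1 was higher, Klf4 at 108 against 45.2 CPM, and 4 were lower, Tbx2 at 17.2 against 60.3, Mef2c at 56.3 against 149, Tbx3 and Foxf2. Prrx1, a homeobox factor of mesenchyme, stood at 326 against 229 CPM (ratio 1.42, interval 1.30 to 1.56). Of 17 glycolysis and hypoxia genes 2 were higher (Ldha and P4ha2) and none lower, and of 12 immediate early genes, which dissociation can raise, 1 was higher (Hspa1a) with a median log2 ratio of 0.02. Of 4 Notch pathway genes measured none was higher and Notch1 was lower. Over all measured genes in this contrast 3.47% were at least 2-fold higher and 9.21% at least 2-fold lower.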
